A study of Mus musculus with 6 samples.

Results

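The genes described here are the replication-dependent histone genes, which encode the core histones H2A, H2B, H3 and H4 and the linker histone H1 and lie in clusters on a few chromosomes. Members were taken by symbol alone, as every gene whose name starts with Hist1h, Hist2h, Hist3h or Hist4h or has the corresponding newer form. This gave 70 of the 55487 genes of the table, with 6 members for H1, 20 for H2A, 19 for H2B, 12 for H3 and 13 for H4. By cluster, 56 belonged to Hist1 on chromosome 13, 10 to Hist2 on chromosome 3, 3 to Hist3 on chromosome 11 and 1 to Hist4 on chromosome 6, and 3 of the 70 are annotated as pseudogenes. The rule itself uses names and no measured value, but the members were chosen with earlier results of these data known.

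The libraries come from a test of BRD9, a bromodomain subunit of the non-canonical BAF chromatin remodeling complex, in transplanted acute myeloid leukemia. Leukemia cells driven by the fusion oncogene MLL-AF9 in a CD45.2(+) Mx1-Cre Brd9fl/fl background were transplanted into irradiated CD45.1(+) CD45.2(-) recipients, 1000 cells each, on C57BL/6. Recipients then received 3 doses of PBS (3 libraries) or of pIpC at 20 mg/kg (3 libraries), and GFP+ bone marrow cells of femora and tibiae were collected on day 10. pIpC mimics viral double-stranded RNA and switches on the interferon-responsive Mx1-Cre, so the floxed Brd9 allele is carried by donor cells of both groups and only the pIpC group received the inducer. PBS libraries therefore control for the genotype but not for interferon. The paper places the injections after disease development in its results, and from the day after transplant in its methods. Sources differ on the cells (GFP+ in the labels, c-Kit+ in the study's methods), on strand (none kept against kept) and on irradiation (lethal, as 2 doses of 450 cGy, against sublethal). Neither source says whether each library came from a separate recipient, so that p-values measure the spread between these libraries, which may be technical.

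Replication-dependent histone genes are transcribed in S phase, when new DNA needs new nucleosomes, and they mostly lack introns. Their mRNAs are the metazoan mRNAs that typically end in a conserved stem-loop rather than in a poly(A) tail. The stem-loop is bound by SLBP and cleaved downstream with the help of the U7 small nuclear RNA, and the mRNAs are degraded when replication stops. Some of these genes also give polyadenylated transcripts when the end is made further downstream, as in cells that leave the cycle. Since RNA was poly(A)-selected here, the values count mainly polyadenylated forms and incidental carry-over, and they are not the total histone mRNA of the cells.

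The stem-loop was searched in the annotated transcripts as 6-base complementary arms, starting with GG and ending with CC, around 4 bases. It was found in 46 members, in 8 forms, and started 24 to 61 bases (median 34) after the last sense codon. In 21 members none was found, of which 15 are annotated to end within 5 bases of that codon, and the 3 pseudogenes have no coding transcript to search. The most frequent form occurred in 26 members (56.5%), the second in 7 and the third in 6. Class and first arm went together: all 34 loops of H1, H2A, H2B and H3 members began with GGCTC, and none of the 12 H4 loops did. The loops of members described below are shown for that reason, 5′ to 3′ on GRCm38, with the stem arms in capitals and the loop in lower case.
Hist1h1c (chr13:23739512-23739527, + strand): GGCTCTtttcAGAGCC
Hist1h2ac (chr13:23683477-23683492, - strand): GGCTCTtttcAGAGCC
Hist1h2bg (chr13:23571843-23571858, + strand): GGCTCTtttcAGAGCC
Hist1h3c (chr13:23745047-23745062, - strand): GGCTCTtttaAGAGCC
Hist2h2ac (chr3:96220418-96220433, - strand): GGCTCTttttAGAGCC
Hist1h4f (chr13:23551291-23551306, - strand): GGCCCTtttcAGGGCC
Hist1h4i (chr13:22040966-22040981, - strand): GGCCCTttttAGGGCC
Hist1h4a (chr13:23760800-23760815, - strand): GGCCCTtctcAGGGCC
The Hist1h3c loop differs from the common form in its loop bases, and Hist1h4i and Hist1h4f share their stem but not their loop bases.

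Promoters were available for 60 members from RefSeq (GRCm38.p6), each from 250 bases before to 50 bases after the start. Counting both strands, CCAAT, the letters bound by NF-Y, occurred in 51 of the 60, against 37.4% of 32851 promoters. It was present in all 5 H1, 17 H2A, 16 H2B and 10 H3 promoters but in 3 of 12 H4 promoters (25.0%). TATAAA was present in 56.7% against 13.6%. The octamer ATTTGCAT, a known element of H2B promoters, was present in 7 of 17 H2A (41.2%) and 6 of 16 H2B promoters (37.5%), in no H1, H3 or H4 promoter, and in 1.74% of all promoters. AAACACA, known from H1 promoters, occurred in 4 of 5 H1 promoters (80.0%) and in 7.18% of all. H2A and H2B neighbours share the bases between them, so their counts are not independent, and a match is only a match of letters. The 250 bases before the start are shown for the member with the highest level per kb of H1, H2B, H3 and H4 and for Hist1h2bq, the member with the lowest fold change, with these motifs on either strand in capitals.
Hist1h1c (chr13:23738557-23738806, + strand): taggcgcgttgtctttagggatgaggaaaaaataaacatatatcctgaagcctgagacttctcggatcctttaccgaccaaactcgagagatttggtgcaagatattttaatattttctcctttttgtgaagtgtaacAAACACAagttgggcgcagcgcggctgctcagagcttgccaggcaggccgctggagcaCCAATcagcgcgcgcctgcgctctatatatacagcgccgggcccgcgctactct
Hist1h2bg (chr13:23571150-23571399, + strand): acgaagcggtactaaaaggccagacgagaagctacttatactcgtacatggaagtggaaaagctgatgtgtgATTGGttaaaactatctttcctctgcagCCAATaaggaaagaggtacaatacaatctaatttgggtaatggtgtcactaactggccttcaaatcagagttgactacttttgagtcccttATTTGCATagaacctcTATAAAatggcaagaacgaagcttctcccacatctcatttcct
Hist1h2bq (chr13:21810200-21810449, - strand): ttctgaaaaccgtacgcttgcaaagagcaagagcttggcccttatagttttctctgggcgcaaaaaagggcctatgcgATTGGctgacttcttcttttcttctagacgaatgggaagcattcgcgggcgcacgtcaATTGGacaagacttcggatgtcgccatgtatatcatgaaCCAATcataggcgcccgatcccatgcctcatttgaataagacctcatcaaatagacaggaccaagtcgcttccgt
Hist1h3c (chr13:23745522-23745771, - strand): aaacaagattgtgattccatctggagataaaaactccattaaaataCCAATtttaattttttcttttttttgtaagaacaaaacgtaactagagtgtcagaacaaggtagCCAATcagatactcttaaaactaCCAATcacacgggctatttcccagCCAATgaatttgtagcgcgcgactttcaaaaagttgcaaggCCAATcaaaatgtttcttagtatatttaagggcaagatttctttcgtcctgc
Hist1h4i (chr13:22041363-22041612, - strand): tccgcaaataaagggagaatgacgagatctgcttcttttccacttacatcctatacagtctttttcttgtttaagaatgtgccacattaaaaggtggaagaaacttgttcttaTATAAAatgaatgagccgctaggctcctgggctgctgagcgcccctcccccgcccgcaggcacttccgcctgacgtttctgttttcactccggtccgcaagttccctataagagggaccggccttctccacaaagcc
Of the motifs searched, Hist1h2bg carries the octamer, CCAAT and also TATAAA. Hist1h2bq and Hist1h3c carry CCAAT alone, Hist1h1c adds AAACACA to it, and Hist1h4i holds TATAAA alone.

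Between 19277439 and 23586722 reads were counted on genes per library, of which 3350 to 11359 fell on the 70 members. Brd9 (chr13:73937811-73960895, GRCm38) was not lower in the libraries labelled pIpC: its normalized count was 1927, 1946 and 1632 in PBS and 2036, 2263 and 2011 in pIpC (log2 fold change 0.20 ± 0.13, adjusted p = 0.259, exact permutation p = 0.1, two-sided, the smallest p that 3 against 3 allows). In the paper, excision removes the Brd9 exons that encode the bromodomain. It reports lower Brd9 mRNA after excision in whole bone marrow, backed by RNA-seq of stem and progenitor cells. The paper also reports inefficient deletion in leukemia cells of pIpC-treated mice that died early. A whole-gene count can still hold reads of the remaining exons. It does not show whether the allele was excised, and values per exon were not analysed here. PBS replicate 3 stood apart, with a chi-square statistic per gene of 171 and 194 against the other PBS libraries, compared with 6.30 between those 2 and 7.93 to 16.8 among pIpC libraries. Counts of members, class sums and the values that turn on it are therefore also given without it. Markers of other cells moved with the groups. Of 14 neutrophil markers 13 were higher in pIpC, with 3992 to 6659 RPM (counts scaled to the library's total) in PBS and 97503 to 99625 in pIpC. All 14 erythroid markers measured were higher, with summed normalized counts of 38.9 to 60 against 5327 to 7582 and with Slc4a1 and Rhag at 0 in every PBS library. All 15 B cell markers were higher (sums of 152 to 315 against 2128 to 3469.6, Ms4a1 at 0 in PBS), as were 7 of 8 tested T and NK cell markers (12 listed, sums of 739 to 759.7 against 3960.1 to 4600.1, Cd8b1 at 0 in PBS), Bcl11b being lower. Of 8 genes listed for MLL-AF9 leukemia 5 were lower and 2 higher, with a median log2 fold change of -3.56. Their sums were 22749 to 30069 in PBS and 17749.5 to 19850.3 in pIpC. Ptprc alone made up 19.7% to 25.1% of the sum in PBS and 65.7% to 68.5% in pIpC. Hoxa9 had 4917, 5172 and 5301 in PBS and 224, 276 and 269 in pIpC, and Meis1 3890.0, 3839 and 3131 in PBS and 227, 239 and 206 in pIpC, both lower. Mef2c had 4.33, 11.1 and 1.13 in PBS and 1059, 1087 and 1111 in pIpC, higher. In bulk RNA, fewer cells of a type and less RNA per cell cannot be told apart, and the part of these markers in the histone values was not tested.

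Histone cluster RNA was lower in the libraries labelled pIpC in every class. Summed over the 70 members, the normalized count was 9559, 9529 and 12855 in PBS and 3543, 3423 and 3890.2 in pIpC, each listed from replicate 1 to replicate 3 as are all values below. The PBS mean was 2.94 times the pIpC mean, and 2.64 times without PBS replicate 3. Of the 70 members, 57 averaged at least 10 normalized counts and entered the limma fit of log2(normalized count + 1), a scale that understates the change of low genes. Of the rest, 6 were at 0 in all libraries and 7 were above 0 but under 10. All 57 tested members had a log2 fold change below 0, from -3.22 to -0.30, with a median of -1.04 against 0.01 over all 15020 genes tested. This held for 52 of 57 without PBS replicate 3, for 50 with the trend with transcript length removed and for 56 with the GC content trend removed. At an adjusted p under 0.1, 25 members fell (43.9%), where 20.4% of all genes were lower, and none rose, where 25.0% of all genes were higher. By edgeR on recovered reads 32 fell and none rose, and no member was above 0 at an unadjusted p under 0.05.

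As a description, in 37 of 57 members (64.9%) the pIpC values all lay below the PBS values, against 26.3% of all genes, and in none did they all lie above, against 30.5%. Without PBS replicate 3, 28 members fell (49.1%, background 30.6%) and none rose (background 34.5%), 24 of them also called with all 6 libraries, and the median was -0.62. Without pIpC replicate 1 or without pIpC replicate 2, 14 fell. Of the 25 members, 12 kept the call with each of the 6 libraries left out in turn: Hist1h1b, Hist1h1c, Hist1h2ac, Hist1h2bc, Hist1h2bh, Hist1h2bk, Hist1h2bn, Hist1h2bp, Hist1h2bq, Hist1h2br, Hist1h3d and Hist1h4a. The other 13 lost it with at least 1 library left out. With the trend with length removed the median was -0.57, and 23 fell.

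**Figure D1:**
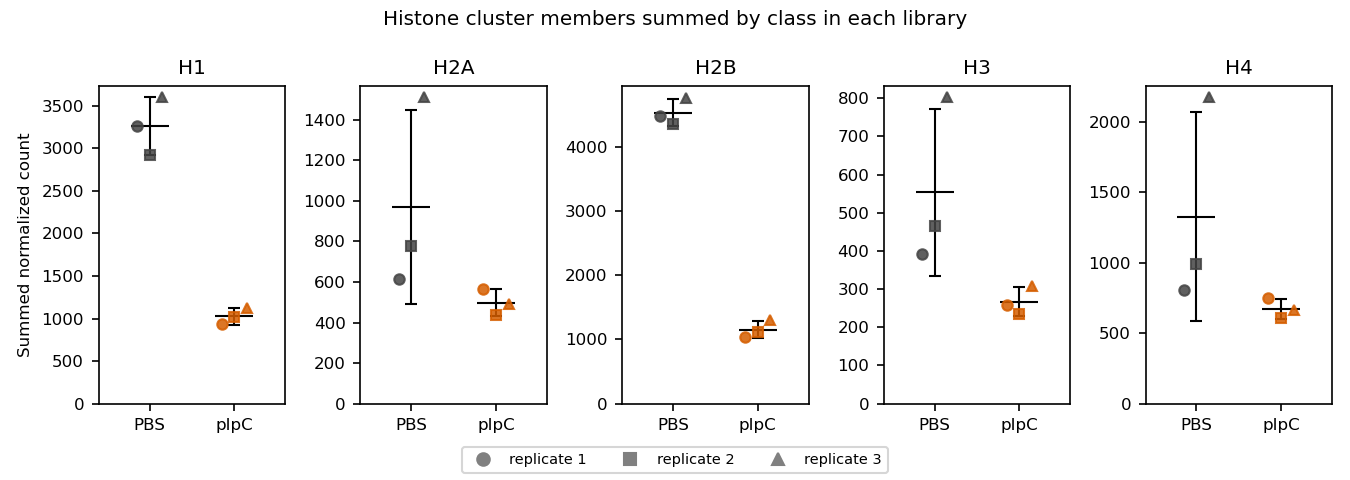
Summed normalized count of the members of each class (y axis, linear, from 0, its own scale in each panel) in the 3 PBS and 3 pIpC libraries. Points are libraries, with the marker giving the replicate number, and bars are the mean and SD of 3 libraries. In each class the pIpC libraries lie below the PBS libraries, and PBS replicate 3 lies highest, by the widest relative margin in H4, H2A and H3.

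H2B and H1 carried most of the count and the widest gap. The H2B sum was 4480.1, 4365 and 4763 in PBS and 1039, 1123 and 1299 in pIpC, 3.93 times lower, or 3.83 times without PBS replicate 3. The H1 sum was 3261, 2924 and 3599 in PBS and 931, 1023 and 1127 in pIpC, 3.18 times lower, or 3.01 times without PBS replicate 3. Single genes weigh on both: without Hist1h1c the H1 sums were 232, 273 and 679 in PBS and 141, 136 and 169 in pIpC (2.66 times, 1.70 without PBS replicate 3), and without Hist1h2bq and Hist1h2br the H2B sums were 2450.3, 2412 and 2785 in PBS and 841, 912 and 1059.8 in pIpC (2.72 times, 2.59 without). In the other 3 classes the gap was smaller. H2A was 617, 779 and 1513 in PBS and 567, 437 and 491 in pIpC (1.95 times, 1.40 without that library). H3 was 392, 466 and 803 in PBS and 259, 234 and 308 in pIpC (2.07 times, 1.61 without). H4 was 809, 995 and 2176 in PBS and 747, 606 and 666 in pIpC (1.97 times, 1.34 without). These sums are descriptions, and the difference between classes was not tested.

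**Figure D2:**
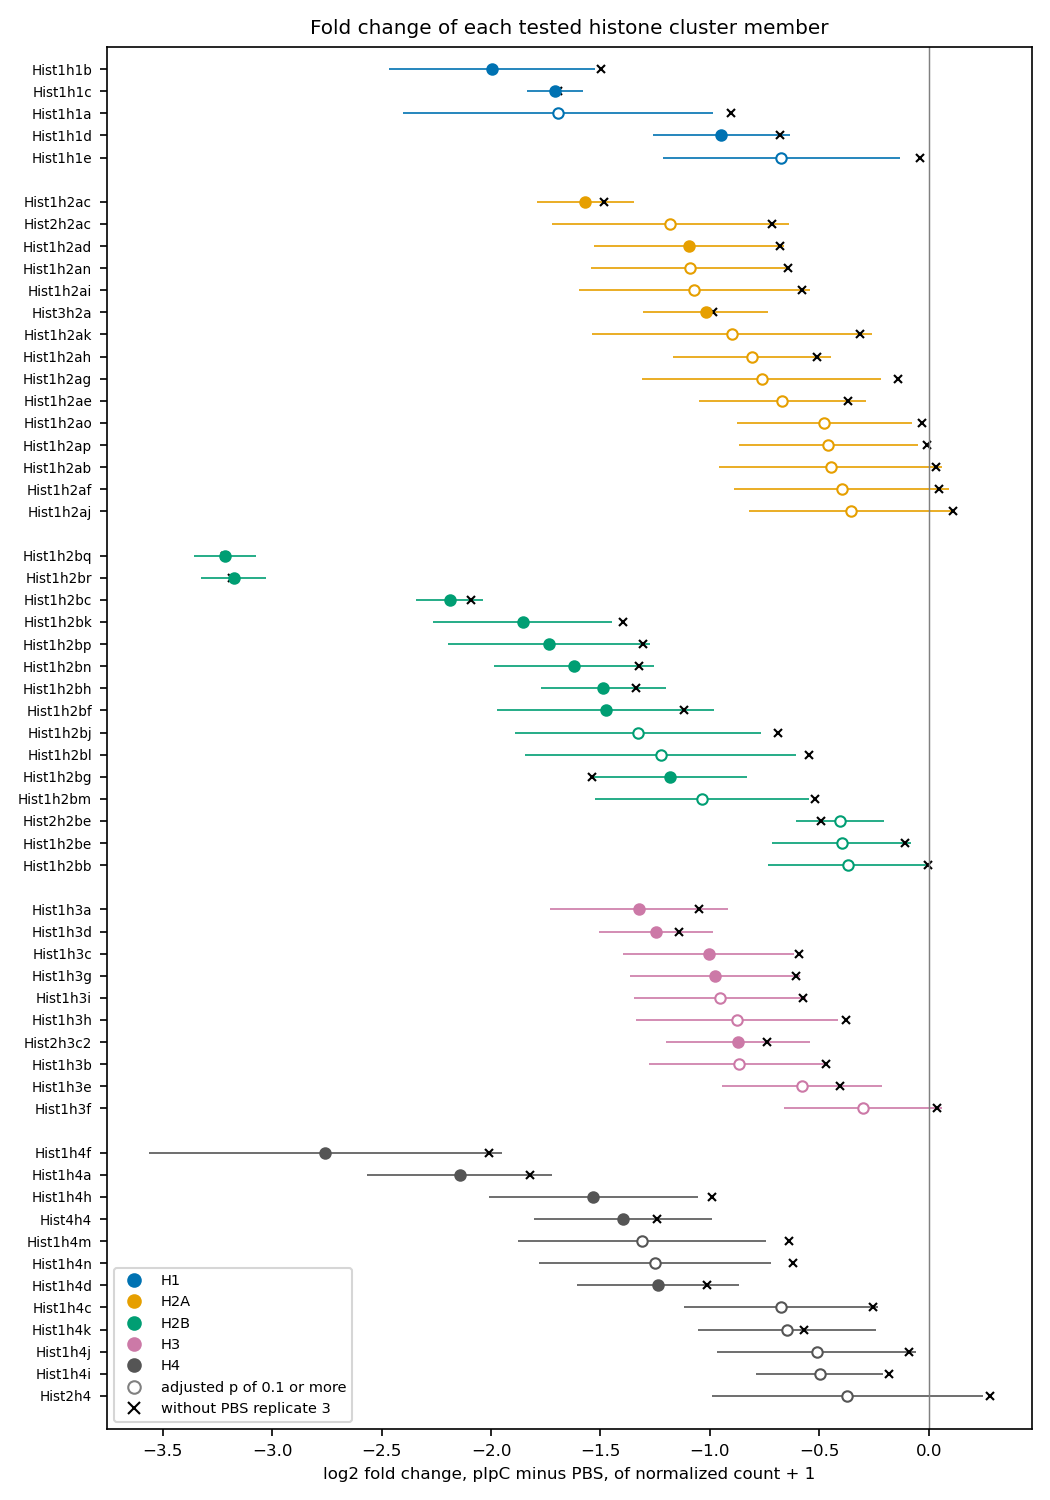
log2 fold change of normalized count + 1, pIpC minus PBS (x axis), for the 57 tested members by class, with the standard error as bars. Filled circles passed an adjusted p under 0.1, and crosses give the value without PBS replicate 3. All circles lie below 0, Hist1h2bq and Hist1h2br lowest at -3.22 and -3.18, and most crosses lie nearer to 0 than their circle.

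Linker histones bind the DNA between nucleosomes. Of the 6 H1 members 5 were tested and 3 fell (60%, against 20.4% of all genes). Without PBS replicate 3, 3 fell as well (60%, against 30.6% of all genes). In 4 the pIpC values all lay below the PBS values, as in 26.3% of all genes. Hist1h1c (chr13:23738808-23740367) made up 81.1% to 92.9% of the H1 count of a library and had the highest mean level per kb of exon of all members, 1838 in PBS and 563 in pIpC as group means. Its normalized count was 3029, 2651 and 2919.7 in PBS and 790.5, 887 and 957 in pIpC, so that the groups were far apart and PBS replicate 3 lay between the other PBS libraries (log2 fold change -1.71 ± 0.13, adjusted p = 0.000117). Hist1h1b had 69.2, 95.1 and 231 in PBS and 32.9, 31.7 and 21.3 in pIpC, with PBS replicate 3 highest but no overlap (log2 fold change -1.995 ± 0.47, adjusted p = 0.0162, -1.50 without PBS replicate 3). Hist1h1d had 102, 111 and 187 in PBS and 55.9, 60.3 and 86.1 in pIpC (log2 fold change -0.95 ± 0.31, adjusted p = 0.0538), and it missed the threshold without pIpC replicate 1 (adjusted p = 0.168) or 2 (0.166).

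The remaining H1 members did not pass. Hist1h1a had 19.9, 15.2 and 93.9 in PBS and 6.99, 7.15 and 13.5 in pIpC, with its PBS mean set by replicate 3 (log2 fold change -1.69 ± 0.71, adjusted p = 0.106), and it passed by edgeR (adjusted p = 0.0697). Hist1h1e had 38.9, 49.6 and 167 in PBS and 44.9, 36.8 and 47.4 in pIpC, which overlap (log2 fold change -0.67 ± 0.54, adjusted p = 0.367, and -0.038 without PBS replicate 3). Hist1h1t, the testis form, was close to 0 in all libraries (1.73, 2.02 and 0 in PBS and 0, 0 and 0.967 in pIpC) and was not tested.

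H2A and H2B form the dimers at the faces of the nucleosome. Of 20 H2A members 15 were tested and 3 fell, 20.0% against 20.4% of all genes tested, so that the share called was that of the background. Without PBS replicate 3, 3 fell as well (20.0%), under the 30.6% of all genes. In 5 of the 15 the pIpC values all lay below the PBS values, as in 26.3% of all genes. The median log2 fold change was -0.81, or -0.37 without PBS replicate 3. Hist1h2ac (chr13:23681467-23683948) was the largest by count and by fall: 125, 170.0 and 175 in PBS and 47.9, 52.1 and 55.1 in pIpC, with no library of one group near the other (log2 fold change -1.57 ± 0.22, adjusted p = 0.00181, -1.48 without PBS replicate 3). Hist1h2ad (36.3, 60.7 and 113 in PBS and 32.9, 30.7 and 24.2 in pIpC; log2 fold change -1.09 ± 0.43, adjusted p = 0.0919) and Hist3h2a, described with its cluster, were the others, and Hist1h2ad missed the threshold without PBS replicate 2 or any single pIpC library (adjusted p = 0.158 to 0.24). The member with the highest level per kb was Hist1h2ao, 226 in PBS and 146 in pIpC. Its counts of 65.8, 76.9 and 182 in PBS and 78.8, 64.4 and 66.7 in pIpC overlapped, with PBS replicates 1 and 2 within the pIpC range (log2 fold change -0.48 ± 0.40, adjusted p = 0.386, -0.029 without PBS replicate 3). The other 11 tested H2A members did not pass, with log2 fold changes of -1.18 to -0.35, and PBS replicate 3 was the highest library in all 15.

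H2B held the 2 members with the lowest fold changes. Of 19 H2B members 15 were tested and 9 fell (60%, against 20.4% of all genes), with a median of -1.48. In 13 the pIpC values all lay below the PBS values, as in 26.3% of all genes. Without PBS replicate 3 the median was -1.30 and 11 fell (73.3%, against 30.6% of all genes). Hist1h2bq (chr13:21806612-21810197) had 1017, 972 and 995 in PBS and 98.8, 104 and 116 in pIpC, and Hist1h2br (chr13:21833743-21837530) had 1012, 981 and 983 in PBS and 98.8, 106 and 123 in pIpC. In both, PBS replicate 3 lay with the other PBS libraries and the groups were far apart. The log2 fold changes were -3.22 ± 0.14 (adjusted p = 2.14e-05) and -3.18 ± 0.15 (adjusted p = 2.64e-05), a mean 9.35 and 9.08 times lower. These are near-identical copies, with 94.8% and 86.4% of their 100-base windows found in another gene, each other included, so the reads of the pair cannot be assigned with certainty and they do not count as 2 independent observations. Hist1h2bc (chr13:23684199-23692908) had 886, 756 and 1004 in PBS and 184, 194 and 196 in pIpC (log2 fold change -2.19 ± 0.15, adjusted p = 9.76e-05), again with PBS replicate 3 beside the others. All 3 of these genes are annotated as spliced, with up to 3 exons.

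Hist1h2bg (chr13:23571396-23572013) had the highest H2B level per kb, 1236 in PBS and 525 in pIpC. It was the tested member in which PBS replicate 3 was lowest relative to the other PBS libraries: 847, 1006 and 438 in PBS and 242, 318 and 414 in pIpC, so that PBS replicate 3 nearly met pIpC replicate 3. It fell (log2 fold change -1.18 ± 0.35, adjusted p = 0.0379), and further without that library (-1.54). It missed the threshold without PBS replicate 2 (adjusted p = 0.103), pIpC replicate 1 (0.132) or pIpC replicate 2 (0.112). The other 5 H2B members that fell were Hist1h2bk, Hist1h2bp, Hist1h2bn, Hist1h2bh and Hist1h2bf, with log2 fold changes of -1.86 to -1.48, and Hist1h2bf missed the threshold without pIpC replicate 1 or 2 (adjusted p = 0.125 to 0.17). Those that did not pass spanned -1.33 for Hist1h2bj to -0.37 for Hist1h2bb.

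**Figure D3:**
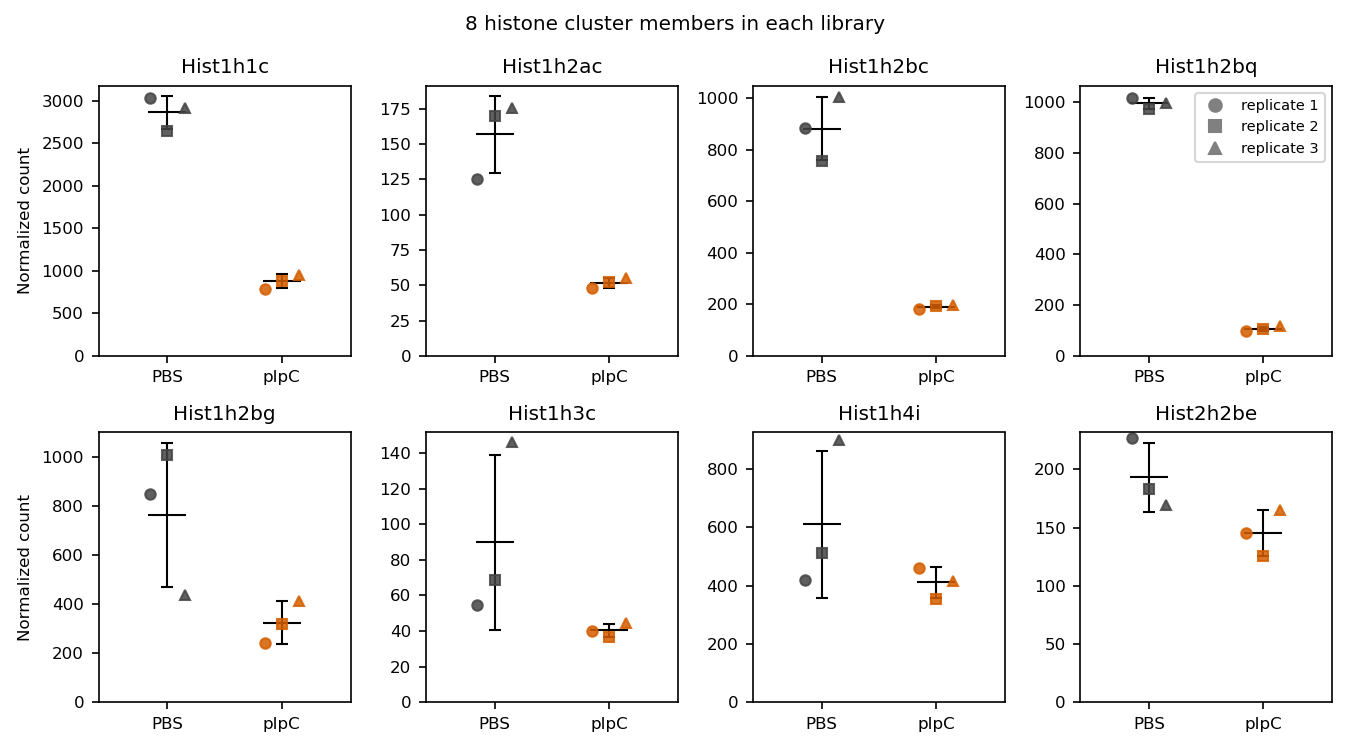
Normalized count (y axis, linear, from 0, its own scale in each panel) of 8 members in the 3 PBS and 3 pIpC libraries, with the marker giving the replicate number and bars the mean and SD. Hist1h1c, Hist1h2ac, Hist1h2bc and Hist1h2bq have PBS replicate 3 near the other PBS libraries, Hist1h3c and Hist1h4i have it far above them, and Hist1h2bg and Hist2h2be have it lowest of the PBS libraries.

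H3 and H4 form the central tetramer of the nucleosome. Of 12 H3 members 10 were tested and 5 fell (50%, against 20.4% of all genes), with a median of -0.92. In 8 the pIpC values all lay below the PBS values, as in 26.3% of all genes. Without PBS replicate 3 the median was -0.58 and 4 fell (40%, against 30.6% of all genes). The lowest was Hist1h3a, 38.9, 33.4 and 64.5 in PBS and 15, 12.3 and 26.1 in pIpC (log2 fold change -1.32 ± 0.41, adjusted p = 0.0424), which missed the threshold without pIpC replicate 1 (adjusted p = 0.128) or 2 (0.145). Hist1h3d, the largest by count, had 82.2, 121 and 124 in PBS and 44.9, 38.8 and 51.3 in pIpC (log2 fold change -1.25 ± 0.26, adjusted p = 0.0097). Hist1h3c had the highest level per kb, 142 in PBS and 64.1 in pIpC, and PBS replicate 3 was far above the other libraries: 54.5, 68.8 and 146 in PBS and 39.9, 36.8 and 44.5 in pIpC (log2 fold change -1.01 ± 0.39, adjusted p = 0.087, -0.59 without PBS replicate 3). Hist1h3c also missed the threshold without PBS replicate 2 (adjusted p = 0.116) and when any pIpC library was left out (0.17 to 0.223). Hist1h3g (log2 fold change -0.98 ± 0.39, adjusted p = 0.0929) and Hist2h3c2 also fell, Hist1h3g not without PBS replicate 2 or 3 or any single pIpC library (adjusted p = 0.112 to 0.209).

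Of 13 H4 members 12 were tested and 5 fell (41.7%, against 20.4% of all genes), with a median of -1.24. In 7 the pIpC values all lay below the PBS values, as in 26.3% of all genes. Without PBS replicate 3 the median was -0.63 and 7 fell (58.3%, against 30.6% of all genes). Hist1h4i (chr13:22040636-22041362) held 41.3% to 62.6% of the H4 count and had the highest level per kb of its class, 839.5 in PBS and 566 in pIpC. Its counts were 421, 511 and 899 in PBS and 462, 356 and 417 in pIpC, which overlap, with PBS replicate 1 below pIpC replicate 1 (log2 fold change -0.50 ± 0.29, adjusted p = 0.222, -0.18 without PBS replicate 3), and it passed when PBS replicate 1 was left out (adjusted p = 0.0955). The lowest fold change was that of Hist1h4f, 13, 21.3 and 82.6 in PBS and 4.99, 6.13 and 0.967 in pIpC, where pIpC replicate 3 held a single read (log2 fold change -2.76 ± 0.81, adjusted p = 0.0361), and it missed the threshold without that library (adjusted p = 0.114). Hist1h4a (14.7, 18.2 and 32.8 in PBS and 3.99, 3.07 and 4.83 in pIpC; log2 fold change -2.14 ± 0.42, adjusted p = 0.00783), Hist1h4h (-1.53), Hist1h4d (-1.24) and Hist4h4 were the others that fell. Hist1h4h missed the threshold when any pIpC library was left out (adjusted p = 0.113 to 0.135), and Hist1h4d without pIpC replicate 2 or 3 (0.113 to 0.132). Hist1h4n (100.4, 149 and 458 in PBS and 81.8, 80.7 and 75.4 in pIpC) and Hist1h4m (57.1, 57.7 and 235 in PBS and 37.9, 42.9 and 30 in pIpC) did not overlap but did not pass with all 6 libraries (adjusted p = 0.111 and 0.117), and passed without PBS replicate 3 (0.0359 and 0.0647).

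Outside Hist1, 6 of 14 members were tested. Hist2h2be (chr3:96221119-96223738), an H2B variant studied in olfactory neurons, had 227, 183 and 169.8 in PBS and 146, 126 and 165 in pIpC, with no overlap but a small gap (log2 fold change -0.40 ± 0.20, adjusted p = 0.163), and it passed without PBS replicate 3 (-0.49, adjusted p = 0.0391). Hist2h2ac had 9.52, 24.3 and 41.9 in PBS and 8.98, 8.17 and 9.67 in pIpC (log2 fold change -1.18 ± 0.54, adjusted p = 0.134), and passed without PBS replicate 1 (adjusted p = 0.0253) and by edgeR (0.0858). Hist2h3c2 had 40.7, 38.5 and 52.1 in PBS and 17, 22.5 and 32.9 in pIpC and fell (log2 fold change -0.87 ± 0.33, adjusted p = 0.0815), but not without PBS replicate 1 or 2 or pIpC replicate 1 or 2 (adjusted p = 0.122 to 0.222). Hist2h4 had 10.4, 7.09 and 36.2 in PBS and 15, 9.2 and 8.7 in pIpC (log2 fold change -0.37 ± 0.62, adjusted p = 0.662), and the sign turned to 0.28 without PBS replicate 3. Hist3h2a (chr11:58954685-58956830) had 46.7, 52.6 and 53.2 in PBS and 20, 22.5 and 32.9 in pIpC and fell (log2 fold change -1.02 ± 0.29, adjusted p = 0.0313), with PBS replicate 3 beside the others, but not without pIpC replicate 1 (adjusted p = 0.104) or 2 (0.113). Hist4h4 (chr6:136801553-136804415) had 22.5, 33.4 and 38.5 in PBS and 6.99, 16.3 and 11.6 in pIpC and fell (log2 fold change -1.40 ± 0.41, adjusted p = 0.0358), but not without pIpC replicate 1 (adjusted p = 0.103).

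Members at or near 0 need their sequence beside them. Of the 6 at 0 in all libraries, Hist2h2aa1, Hist2h2aa2, Hist2h2bb, Hist2h3b and Hist2h3c1 have all their 100-base windows (100%) in another annotated gene, so that a value of 0 says nothing of their RNA where shared reads are dropped or assigned elsewhere. The remaining gene at 0 was Hist1h2aa, a testis form, and its testis neighbour Hist1h2ba had 3.46, 0 and 2.26 in PBS and 0, 4.09 and 1.93 in pIpC. Hist3h2ba, chosen after its values were seen, was the member with the opposite order: 0 reads in each PBS library and 5, 5 and 4 in pIpC, at least 4.64-fold higher against a floor of 3 reads over the PBS group. It was under the filter, and was the single member called higher when no filter was used. Over the 70 members, the median share of windows found in another gene was 35.7%, 10 members shared at least 90%, and 6 shared none. Reads of near-identical copies are therefore uncertain between members, and overlapping genes cannot be separated if the libraries were unstranded.

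H2A and H2B genes often lie head to head and share the bases between them. There were 14 such pairs, with 172 to 305 bases between the annotated starts, and in 12 both genes were tested. The H2B gene had the lower log2 fold change in 11 of the 12, with medians of -1.55 for H2B and -0.85 for H2A. It fell in 8 pairs and the H2A gene in 2, Hist1h2ac and Hist1h2ad, whose H2B neighbours Hist1h2bc and Hist1h2bf fell too. The widest gaps were between Hist1h2bq (-3.22) and Hist1h2ao (-0.48), 267 bases apart, and between Hist1h2br (-3.18) and Hist1h2ap (-0.46), 235 bases apart. Group means for the former pair were 995 in PBS and 106 in pIpC for Hist1h2bq and 108 and 70.0 for Hist1h2ao. These 2 pairs are near-identical copies in both genes, with 92.7% of the windows of Hist1h2ao and 92.2% of those of Hist1h2ap found in another gene. They do not count as 2 independent pairs. With all 6 libraries the exception was Hist2h2be (-0.40), with Hist2h2ac at -1.18. Without PBS replicate 3 the order also turned in Hist1h2bl (-0.55) and Hist1h2ai (-0.58). The difference within pairs was not tested.

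**Figure D4:**
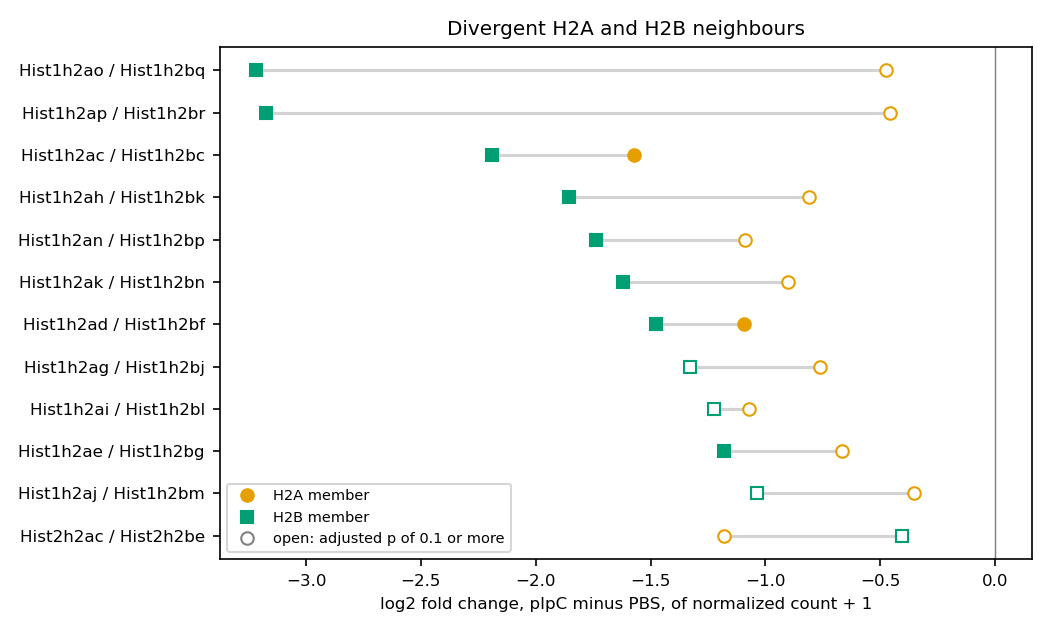
log2 fold change of normalized count + 1, pIpC minus PBS (x axis), of the H2A gene (circle) and the H2B gene (square) of 12 head-to-head pairs, with filled symbols for an adjusted p under 0.1. The H2B square lies left of the H2A circle in 11 pairs and right of it in Hist2h2ac and Hist2h2be.

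PBS replicate 3 was high in most members. It was the highest of the 6 libraries in 51 of 57 tested members (89.5%), against 34.4% of all genes tested, and its ratio to the mean of PBS replicates 1 and 2 had a median of 2.33 over the members and 0.99 over all genes. The ratio ran from 0.473 in Hist1h2bg to 5.35 in Hist1h1a, was at least 2 in 34 members and under 1 in 3. Such a spread was not particular to the members. In the 11 replacement histones described below the ratio ran from 0.852 to 2.58, with a median of 1.51. In 20 factors that act on histone mRNA it ran from 0.356 to 2.44, with a median of 0.91. Among the members the ratio differed with the annotated 3′ end, which was not separated from transcript length. The 24 tested members annotated to end more than 200 bases after the last sense codon, or as spliced, had a median ratio of 1.40, and the 32 annotated to end within 200 bases had 2.57. Hist1h2ae and Hist1h2bg, at 202 and 203 bases, fall just past that limit.

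Summed, the 27 members with long or spliced annotations had 8274, 8034 and 8938 in PBS and 2559, 2579 and 2974 in pIpC, 3.11 times lower, and 3.02 times without PBS replicate 3. The 40 with short annotations had 1268, 1477 and 3875 in PBS and 963, 831 and 895 in pIpC, 2.46 times lower, and 1.53 times without PBS replicate 3. Of the former 14 of 24 tested fell (58.3%), and of the latter 11 of 32 (34.4%), against 20.4% of all genes. Without PBS replicate 3 the shares were 62.5% and 40.6%, against 30.6% of all genes. The median log2 fold changes had the other order with all 6 libraries, -0.98 for long or spliced and -1.08 for short annotations. They were -0.86 and -0.60 without PBS replicate 3. Among the long or spliced, Hist1h1c, Hist1h2bq, Hist1h2br and Hist1h2bc alone summed to 5945, 5359.6 and 5902 in PBS and 1172, 1291 and 1392 in pIpC (4.46 times, 4.40 without PBS replicate 3). The other 23 summed to 2329, 2674 and 3036 in PBS and 1387, 1287 and 1581 in pIpC (1.89 times, 1.76 without). The short annotations, at 2.46 times with all 6 libraries and 1.53 without PBS replicate 3, lay above them in the first case and below in the second. The order of the 2 kinds of annotation thus turned on these 4 genes and on PBS replicate 3. The split and the 4 genes were chosen after values were seen, and annotated length does not show which end a read came from.

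**Figure D5:**
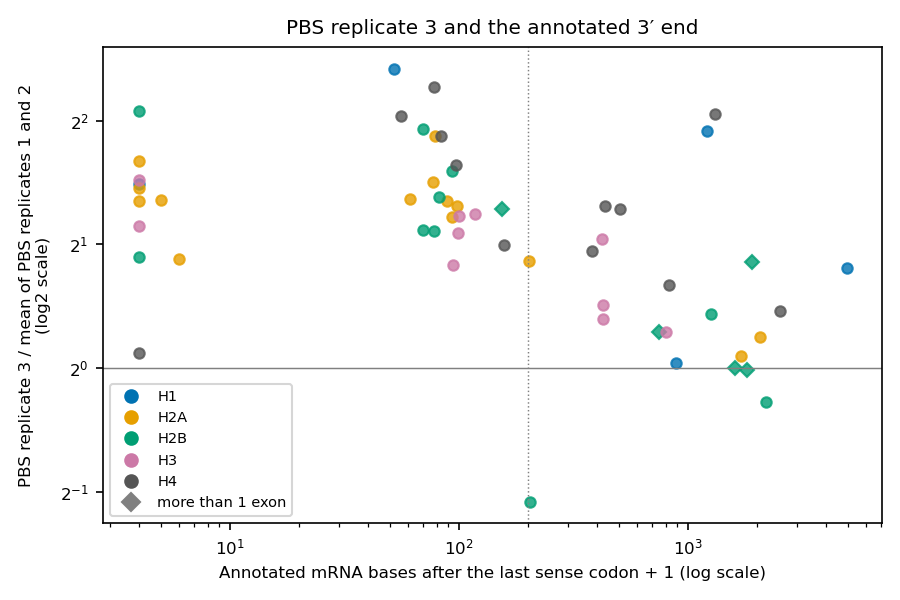
Ratio of PBS replicate 3 to the mean of PBS replicates 1 and 2 (y axis, log2 scale) against the annotated bases after the last sense codon plus 1 (x axis, log scale) for 56 tested members, colored by class, with diamonds for more than 1 exon. The dotted line marks 200 bases. The median ratio is 2.57 to its left, where 1 spliced member also lies, and 1.40 for the members to its right with that spliced member.

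Replacement histones are made outside S phase too, as a rule from polyadenylated mRNAs and often from genes with introns. In H1f0, H1fx, H2afx and H2afj, however, the annotated exons cover the whole gene. Of the 11 replacement histone genes 4 fell (36.4%, against 20.4% of all genes) and 1 rose (9.09%, against 25.0%). The median log2 fold change was -0.23, and 0.02 without PBS replicate 3. Without that library 4 rose (36.4%, against 34.5% of all genes) and 4 fell (36.4%, against 30.6%). H1f0, a linker histone of cells that leave the cycle, had 2385, 1837 and 1798 in PBS and 884, 1071 and 865 in pIpC (log2 fold change -1.09 ± 0.16, adjusted p = 0.00232), with no overlap. H1fx (83.9, 52.6 and 149 in PBS and 42.9, 35.8 and 39.6 in pIpC; log2 fold change -1.13 ± 0.39, adjusted p = 0.0639) and H2afy2, which encodes a macroH2A (90, 92.1 and 121 in PBS and 28.9, 63.3 and 46.4 in pIpC; log2 fold change -1.17 ± 0.33, adjusted p = 0.0332), also fell from low levels. H1fx missed the threshold without PBS replicate 1 (adjusted p = 0.111) or any single pIpC library (0.137 to 0.18). H3f3b, which encodes H3.3, had 23928, 26160.1 and 28678 in PBS and 19484, 17558 and 20002 in pIpC (log2 fold change -0.46 ± 0.15, adjusted p = 0.0513), and missed it without PBS replicate 2 (0.113) or any single pIpC library (0.136 to 0.212) and with quantile normalization. Cenpa, the centromeric H3, was the gene that rose, 2672, 2863 and 3149 in PBS and 3407, 3680.1 and 3619 in pIpC (log2 fold change 0.30 ± 0.12, adjusted p = 0.0865), but not when any library other than PBS replicate 3 was left out (adjusted p = 0.154 to 0.254) or by edgeR (0.116).

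The other 6 replacement histones did not pass, and PBS replicate 3 was their highest PBS library. H2afz, with 17122, 18401 and 35515 in PBS and 23019, 20811 and 21927 in pIpC, had a log2 fold change of -0.03 that turned to 0.30 without PBS replicate 3. H3f3a, the second H3.3 gene, had 14397, 14228 and 29209 in PBS and 17182, 17648 and 18558 in pIpC (-0.03, and 0.31 without it). For H2afx, the H2A phosphorylated at DNA breaks, 2949, 3316 and 4718 in PBS and 4086, 4137 and 4122 in pIpC gave 0.20, and for H2afy, another macroH2A, 10978, 11639 and 14652 in PBS and 11659, 11468 and 11193 in pIpC gave -0.11. H2afv had 1293, 1467 and 3146 in PBS and 1430.2, 1536 and 1674 in pIpC (-0.23) and H2afj 1317, 1221 and 3274 in PBS and 1288, 1158 and 1288 in pIpC (-0.48). Without PBS replicate 3, H2afx, H2afz and H3f3a were higher at adjusted p = 0.00107, 0.00746 and 0.00342.

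Of 20 factors that transcribe, process or degrade histone mRNA, 3 rose (15%) and 1 fell (5%), both shares under the 25.0% and 20.4% of all genes, with a median of 0.06. Without PBS replicate 3, 5 rose (25%, against 34.5% of all genes) and 5 fell (25%, against 30.6%). Npat, the coactivator of the histone clusters, had 875, 860.4 and 481 in PBS and 892, 958 and 875 in pIpC (log2 fold change 0.35 ± 0.25, adjusted p = 0.305), with PBS replicate 3 lowest and the other PBS libraries at or just under the pIpC range. Slbp, which binds the stem-loop, had 3129, 3321 and 4149 in PBS and 3965, 3691 and 3642 in pIpC (log2 fold change 0.10 ± 0.14, adjusted p = 0.603), and without PBS replicate 3 0.22 (adjusted p = 0.0189). The highest was Tut4, a terminal uridylyltransferase known to tag histone mRNA and pre-let-7 with uridines: 14.7, 8.1 and 6.79 in PBS and 1066, 1173 and 1129 in pIpC (log2 fold change 6.76 ± 0.29, adjusted p = 2.14e-05), so that it was near the filter in PBS and above 1000 in every pIpC library. Its paralogue Tut7 had 3236, 3097 and 1127 in PBS and 3744, 4409 and 3927 in pIpC (log2 fold change 0.84 ± 0.40, adjusted p = 0.146). Zfp473, which binds the U7 particle, rose (26.8, 31.4 and 21.5 in PBS and 64.9, 64.4 and 79.3 in pIpC; log2 fold change 1.36 ± 0.26, adjusted p = 0.00684), as did the cleavage factor subunit Cpsf2 (log2 fold change 0.32 ± 0.12, adjusted p = 0.0821), which missed the threshold by edgeR (0.106) and without PBS replicate 1 or any single pIpC library (0.14 to 0.213). Coil, the marker of Cajal bodies, was the lowest, 428, 477 and 385 in PBS and 317, 313 and 335 in pIpC (log2 fold change -0.41 ± 0.15, adjusted p = 0.0655), and missed the threshold when any library other than PBS replicate 3 was left out (adjusted p = 0.127 to 0.201).

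Among 23 histone chaperones and their partners 2 rose (8.70%) and 1 fell (4.35%), both shares under those of all genes (25.0% and 20.4%), with a median of 0.03. Without PBS replicate 3, 9 rose (39.1%, against 34.5% of all genes) and 5 fell (21.7%, against 30.6%), so the share that rose was then above the background. Asf1b, which carries H3 and H4, rose (1316, 1589 and 1718 in PBS and 2247, 2339.7 and 2379.8 in pIpC; log2 fold change 0.60 ± 0.14, adjusted p = 0.0137), and so did Hjurp, the chaperone of Cenpa (10055, 9314 and 5562 in PBS and 12507, 14779 and 13628 in pIpC; log2 fold change 0.76 ± 0.24, adjusted p = 0.0487), though not when any pIpC library was left out (adjusted p = 0.107 to 0.16). Ipo4, an importin for H3 and H4, was the lowest, with 321, 317 and 532 in PBS and 164, 151 and 170.2 in pIpC and no overlap (log2 fold change -1.22 ± 0.24, adjusted p = 0.00729). Atrx, a partner of the H3.3 chaperone Daxx, was the highest but did not pass, 5554, 5607 and 1782 in PBS and 7166, 8484 and 7522 in pIpC, with PBS replicate 3 far below the other PBS libraries (log2 fold change 1.01 ± 0.44, adjusted p = 0.116), and it passed without that library (0.47, adjusted p = 0.00101).

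Of 40 S phase genes 6 rose (15%, against 25.0% of all genes) and 8 fell (20.0%, against 20.4%), shares at or under the background, with a median of -0.22. Without PBS replicate 3, 8 rose (20.0%, against 34.5%) and 16 fell (40.0%, against 30.6%), with a median of -0.08. E2f2, a transcription factor of S phase entry, was the highest (817, 763 and 768 in PBS and 4024, 4847 and 4118 in pIpC; log2 fold change 2.46 ± 0.12, adjusted p = 3.11e-05), while E2f1 fell (1607, 1575 and 1581 in PBS and 1009, 1075 and 1024 in pIpC; log2 fold change -0.62 ± 0.11, adjusted p = 0.0043). Rrm2, the S phase subunit of ribonucleotide reductase, rose (2816, 3179 and 3387 in PBS and 7633, 7713 and 7598 in pIpC; log2 fold change 1.29 ± 0.12, adjusted p = 0.000286), as did Ccna2, a cyclin of S and G2 phase (2372, 2708 and 2269 in PBS and 4634, 4709 and 4703 in pIpC; log2 fold change 0.94 ± 0.12, adjusted p = 0.00107). Rfc3, a subunit of the clamp loader, was the lowest (995, 979.8 and 1782 in PBS and 775, 664 and 768 in pIpC; log2 fold change -0.71 ± 0.25, adjusted p = 0.065), and missed the threshold when any pIpC library was left out (adjusted p = 0.141 to 0.195). Mcm3 and Mcm6 of the replicative helicase fell (-0.48 and -0.61), Mcm3 not without pIpC replicate 2 (adjusted p = 0.114) and Mcm6 not when any pIpC library was left out (0.105 to 0.149). The S phase sum was 113442 to 133505 in PBS and 113949 to 118404 in pIpC and overlapped, whereas the histone sum did not.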

How the data were processed

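RNA of 3 PBS and 3 pIpC libraries was poly(A)-selected and sequenced. The authors deposited a single table of normalized gene counts, treated here as a signal: within each column 100% of values were whole multiples (within 0.01 read) of the value of 1 read, so reads could be recovered. The study's methods name nf-core/rnaseq with STAR, RSEM and DESeq2 on mm10, whereas the submitters' processing notes name HISAT2 2.2.1, featureCounts and edgeR on GRCm38. The file does not say which made it, so the handling of reads shared by histone copies is not known. No column was left out (0).

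limma (3.58.1, R 4.3.3) with an intensity trend was fitted to log2(normalized count + 1) of 15020 genes with a mean of at least 10, with Benjamini-Hochberg adjustment over all of them at 0.1. Errors of fold changes are SE and n is 3 per group. Same-numbered libraries' deviations correlated at -0.12, 0.14 and 0.041, so no pairing was used. The fit was tested on simulated data. edgeR (4.0.16) and DESeq2 (1.42.0) on recovered reads were alternatives, beside other pseudocounts, filters and scalings, each library left out, and a replicate block. Gene models were GENCODE M21 on GRCm38. Shared sequence was counted in 100-base windows of the annotated transcripts. Levels per kb are normalized counts per kb of exon. Class sums and lists were described without a test.

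The members, gene lists and markers were chosen with earlier results of these data known. Genes are named as Brd9; per class the highest level per kb and the largest rise and fall past the threshold; all tested H1, Hist2, Hist3 and Hist4 members and replacement histones; Slbp, Npat and the testis members; and the highest and lowest gene of each list. Others are further examples. The listed symbols Zcchc11 and Zcchc6 are Tut4 and Tut7 in the annotation, and 1 of 15 erythroid markers was not found by symbol. Protein sequences were not used here.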

Additional observations from a re-analysis of the deposited data

How the results depend on the processing

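All class sums stayed lower in pIpC under every alternative run, and Brd9 did not pass under any (log2 fold change 0.12 to 0.24 with a library left out). The count of members that changed, all lower, was 25 and went to 12 with a mean of at least 50 (23 members fitted), 43 with quantile normalization, which put the median of all genes at -0.12, and 41 with quantile normalization without PBS replicate 3. With a library left out it lay between 14 and 33. No member was higher in any alternative except Hist3h2ba (1) with no filter. The median log2 fold change was -1.40 with quantile normalization, -0.57 with the length trend removed, and -1.30 to -0.62 with a library left out. Without its largest member the log2 ratio of sums was -1.41 for H1 (from -1.67) and -1.76 for H2B (from -1.97), or -1.44 without both Hist1h2bq and Hist1h2br, chosen after seeing the data. Replicate numbers share no animal or batch in the labels, and with a replicate block 26 members were lower, so the block changed the count by 1; the median was -1.04.

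Of 714 alternatives for 38 named genes, 613 kept direction and side of the threshold, 65 lost the call, 22 gained it and 14 reversed. Over the left-out libraries Hist2h4 ran from -0.82 to 0.28, H2afz from -0.22 to 0.30, H2afv from -0.48 to 0.16, H2afy from -0.19 to 0.017 and H3f3a from -0.21 to 0.31, each above 0 without PBS replicate 3. With the length trend removed, Hist1h2ao was 0.016, H2afz 0.21, H2afv 0.028, H3f3a 0.022 and Slbp -0.024. With quantile normalization, H2afz was 0.30, H3f3a 0.24 and Slbp -0.031, and H2afz was 0.0064 without pIpC replicate 2. The cause was not tested. Depth limits the low members: 47 of 57 tested had a mean under 100, and intervals were not drawn for sums of shared reads.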
